A study of Mus with 9 samples.

Results

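The genes described here are 7 genes of the mouse HoxB cluster, Hoxb2 to Hoxb8, and the homeobox gene Nkx2-3. They are the 8 members of 54532 genes in the count table, found there by their symbols. They were chosen by their measured levels, with earlier results of these data known, in which reads of Hoxb4 and Nkx2-3 were lower in the CCND2wt than in the Vec libraries. Their own levels in the 3 groups are therefore given as a description, with no p-value. A fit of all genes called some of them. Those calls are only counted, in that fit and under other settings, and nothing is read from them. Only Hoxb4, Hoxb3 and Nkx2-3 had more than 2 reads over all 9 libraries, so that the set is better called Hoxb4, Hoxb3 and Nkx2-3 than a HoxB cluster pattern.

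RNA was sequenced from bone marrow cells of mice in 3 groups (Vec, CCND2wt and CCND2mut) of 3 libraries each. According to the labels and the series' design text, all groups were lethally irradiated C57BL/6 mice that received fetal liver cells of embryonic day 12.5, together with supportive cells, and every donor carried a conditional AML1-ETO knock-in tagged with mCherry. AML1-ETO is the fusion of RUNX1 with RUNX1T1 found in acute myeloid leukaemia, and the model is described as pre-leukaemic, with a myeloproliferative disease. Donor cells positive for mCherry and GFP had been infected with the retroviral vector MSCV-IRES-EGFP, which was empty (Vec), held the cyclin CCND2 (CCND2wt) or held CCND2 with threonine 280 replaced by alanine (CCND2mut). All groups thus share the knock-in, the vector backbone and the transplantation, and there is no group without AML1-ETO. The labels do not give the age of the mice, the Cre line, whether the marrow was sorted for mCherry and GFP, or whether animals were pooled. RNA of host and supportive cells can be present, and in bulk marrow fewer cells of a type and less RNA per cell cannot be told apart. Nothing in the labels ties the libraries of a group to separate animals, and p-values then measure only the spread between these libraries.

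HOX genes encode homeodomain transcription factors that lie in 4 clusters (HoxA to HoxD) and give cells positional identity in the embryo. In blood, genes of the HoxA and HoxB clusters are known for activity in stem and early progenitor cells that falls as cells mature, and forced HOXB4 is known to expand mouse blood stem cells. HOX proteins bind DNA with partners of the PBX and MEIS families, and their clusters are held active by MLL complexes and silent by Polycomb complexes. Nkx2-3 belongs to the NK2 homeobox family and is known for its role in the development of spleen and gut, in mesenchyme and vessels. High NKX2-3 has been described in leukaemias and lymphomas.

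Libraries held 15043755 to 17593634 counts, so that 1 read was worth 0.0529 to 0.0679 CPM and a count of 0 allows up to 0.159 to 0.204 CPM, which is 3 counts. CPM, counts per unit of library size after correction by TMM factors, are given as mean ± SD (n = 3 libraries). The pan-blood gene Ptprc (CD45) stood between 191 and 493 CPM in all 9 libraries. Its group means were 459.7 ± 53.4 CPM in Vec, 240.6 ± 5.27 in CCND2wt and 280.3 ± 86.8 in CCND2mut. It was called lower in CCND2wt and in CCND2mut than in Vec (edgeR adjusted p = 0.0192 and 0.0211), where 9.05% and 26.9% of all tested genes were called lower. Summed over 5 pan-blood genes, the level was 2207 to 2502, 1339 to 1386 and 2446 to 3903 CPM in Vec, CCND2wt and CCND2mut. Vec 1 held 1.51% haemoglobin counts and CCND2mut 2 held 0.00271%. Ccnd2, the mouse gene, went against the labels of an added CCND2: it stood at 76.2 to 86.2 CPM in Vec, 7.30 to 11.1 CPM in CCND2wt and 12.6, 58.2 and 51.1 CPM in CCND2mut 1, 2 and 3. The labels do not say whether the vector held the mouse or the human sequence, so each group below stands for the libraries labelled with its name. The X-inactivation RNA Xist stood at 170, 10.7 and 879 CPM in Vec 1, 2 and 4, at 2111 to 2305 CPM in CCND2wt and at 4.31 to 11.8 CPM in CCND2mut, and the Y-linked gene Ddx3y at 134, 318 and 64.5 CPM, at 0.605 to 0.635 CPM and at 27.4, 0 and 0 CPM. Sex-linked genes thus moved with the groups, and cannot be told apart from the labels. The CCND2wt libraries lay close together, as for Ptprc (SD of 5.27 CPM against 53.4 in Vec and 86.8 in CCND2mut). The labels do not say whether they came from 1 source. In an added alternative, chosen with the data in view, the CCND2wt libraries were summed to 1 sample. Of 18 named genes that edgeR called in CCND2wt against Vec, 0 remained called then (adjusted p = 0.0779 to 0.503). That setting leaves CCND2wt with 1 sample, assumed to vary like the libraries of the other groups, so that a loss of calls is partly built in. The log2 fold changes of the 16 of these genes outside the 8 members moved by at most 0.038. So small a shift is largely built in too, since the sum holds the same reads. Under the same setting 25 of 28 named calls of CCND2mut against Vec and 15 of 26 of CCND2mut against CCND2wt remained.

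Hoxb4 carried most HoxB reads. The gene (ENSMUSG00000038692) lies on the plus strand of chromosome 11, from 96318267 to 96321638 in mm10, and its gene model overlaps no other in the file. Hoxb4 had 95, 93 and 47 reads in Vec 1, 2 and 4, which is 5.73, 6.32 and 3.01 CPM. In CCND2wt 2, 3 and 4 it had 0, 0 and 1 read. The CCND2mut libraries differed among themselves: 43 reads (2.61 CPM) in CCND2mut 1, 1 read (0.0668 CPM) in CCND2mut 2 and 28 reads (1.86 CPM) in CCND2mut 3. All Vec libraries thus lay above all others, CCND2wt was near 0 throughout, and CCND2mut was intermediate in replicates 1 and 3 and near 0 in replicate 2. Group means of Hoxb4 were 5.02 ± 1.76 CPM in Vec, 1.51 ± 1.31 CPM in CCND2mut and 0.0183 ± 0.0318 CPM in CCND2wt.

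Ratios of the summed Hoxb4 reads give the size of these differences, with 95% intervals that cover counting error only. The intervals leave out the spread between libraries and are no test of a difference between groups. Hoxb4 in Vec was 274 times that in CCND2wt (235 reads against 1, interval 48.7 to 10900), and 3.24 times that in CCND2mut (235 against 72, interval 2.48 to 4.28). CCND2mut held 84.7 times the level of CCND2wt (interval 14.7 to 3390). Without CCND2mut 2 the ratio of Vec to CCND2mut was 2.23 (interval 1.7 to 2.94), and that of CCND2mut to CCND2wt was 123 (interval 21.4 to 4940). The gap between Vec and CCND2mut was narrow for single libraries, since the lowest Vec value (3.01 CPM) and the highest CCND2mut value (2.61 CPM) lay close together. Hoxb4 spread 39.1-fold from the lowest to the highest CCND2mut library, and 5.86% of all tested genes had as large a range there on the log2(CPM + 1) scale.

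**Figure D1:**
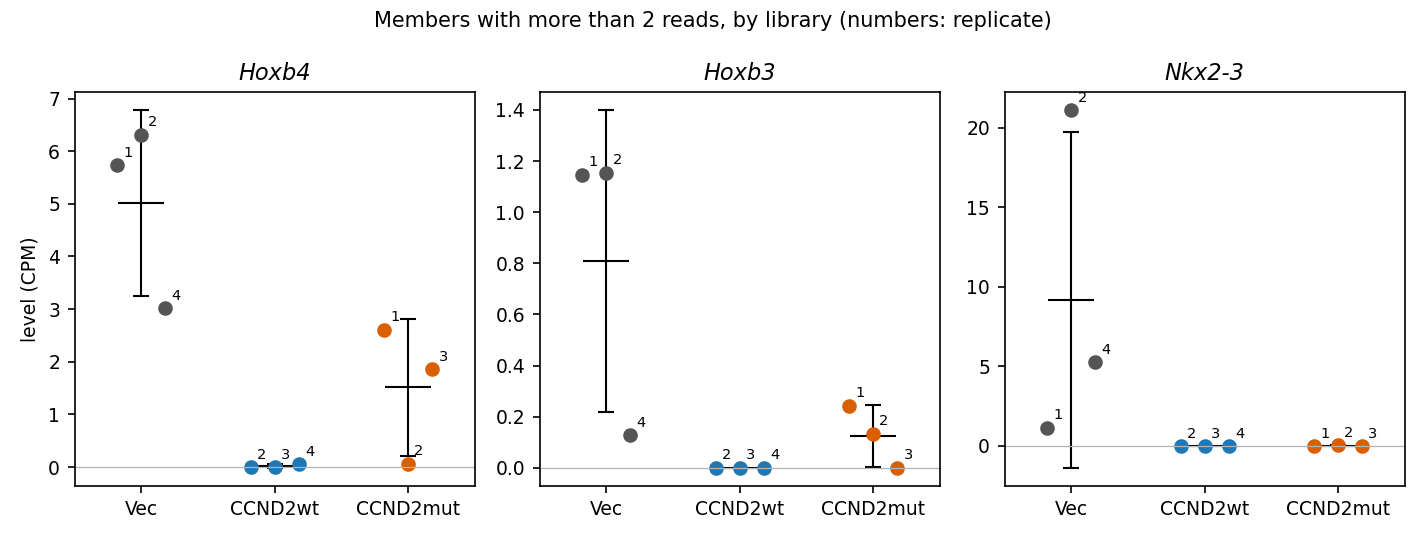
Levels of Hoxb4, Hoxb3 and Nkx2-3 in library-scaled counts (CPM, y axis, a separate linear scale for each gene) in the 3 libraries of each group (x axis); points are libraries with their replicate number, bars are the mean ± SD. Hoxb4 is at 3.01 to 6.32 CPM in Vec, near 0 in CCND2wt and split in CCND2mut, while Nkx2-3 ranges from 1.15 to 21.1 CPM in Vec and is near 0 in all other libraries.

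Hoxb3, the neighbour of Hoxb4 and, like it, a gene linked to blood stem cell growth, was the other HoxB gene with reads in more than a pair of libraries. It lies at 96323326 to 96347930 on chromosome 11 (ENSMUSG00000048763), and overlaps the antisense genes Gm11536 and Hoxb3os. The strand setting of the counting is not given in the sources used here, so that reads of Hoxb3 and of these antisense genes cannot be told apart with certainty. Hoxb3 had 19, 17 and 2 reads in Vec 1, 2 and 4 (1.15, 1.15 and 0.128 CPM). It had 0 reads in each CCND2wt library, and 4, 2 and 0 in CCND2mut 1, 2 and 3. Vec 4 with its 2 reads lay within the range of CCND2mut, so that those groups overlapped, whereas the level in Vec as a whole was at least 14.8-fold higher than in CCND2wt by a floor of 3 counts over the group. Hoxb3 in Vec was 6.28 times that in CCND2mut (38 reads against 6, counting interval 2.63 to 18.2). In each library with at least 10 Hoxb4 reads Hoxb3 was the lesser gene, with 20, 18.3, 4.26, 9.3 and 0 Hoxb3 reads per 100 Hoxb4 reads in Vec 1, 2 and 4 and CCND2mut 1 and 3.

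The other HoxB members were at or close to 0 in every library. Hoxb5 and Hoxb7 had 0 reads in all 9 libraries. Hoxb2 had 1 read in each of Vec 1 and Vec 2, Hoxb6 had 1 read in Vec 4, and Hoxb8 had 1 read in Vec 1. Hoxb8, whose forced activity is known to block myeloid maturation, was thus not detectable in CCND2wt and CCND2mut at this depth, and neither were Hoxb2 and Hoxb6. Hoxb2 overlaps Hoxb3os, and Hoxb5 and Hoxb6 overlap the antisense gene Hoxb5os, which had 0 reads. The 3 coding genes of the cluster that are no members were equally low: Hoxb9 had 0 reads, Hoxb1 had 1 and Hoxb13 had 2.

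Reads in the 173.9 kb from Hoxb13 to Hoxb1 were confined mainly to a short stretch around Hoxb4 and Hoxb3. Of the 19 genes the file places there, 9 are noncoding, and 2 of these had at least 10 reads over the 9 libraries. Hoxb3os, which lies opposite Hoxb3 and Hoxb2, had 13 reads in Vec 2, 0 in Vec 1 and Vec 4, 0 in CCND2wt, and 1 in each of CCND2mut 1 and CCND2mut 2. All Hoxb3os reads of Vec were thus in a single library, although Hoxb3 and Hoxb4 in Vec 1 were about as high as in Vec 2. Mir10a, the microRNA gene that starts 1.1 kb before Hoxb4, had 1 and 3 reads in Vec 1 and 2 and 0 in all other libraries, and a library of long RNA does not measure mature microRNA. The pseudogene Gm11539, between Hoxb13 and Hoxb9, had 27, 9 and 25 reads in Vec, CCND2wt and CCND2mut, and so had reads in the groups where Hoxb4 was low as well.

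**Figure D2:**
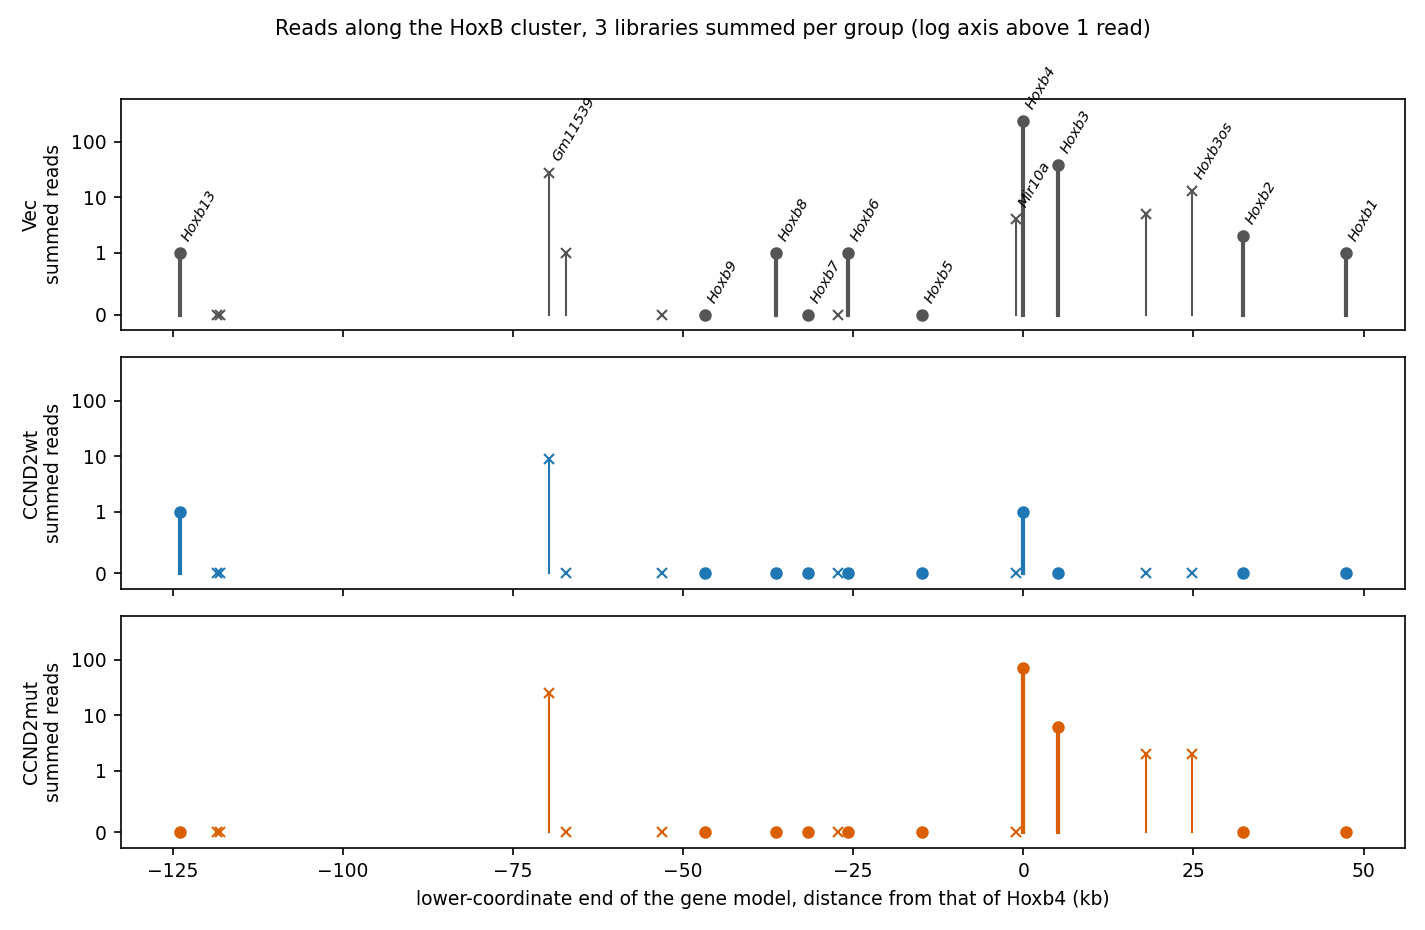
Reads per gene model, summed over the 3 libraries of a group (y axis, logarithmic above 1 read), against the distance of the gene model's lower-coordinate end from that of Hoxb4 in kb (x axis); filled circles are coding genes, crosses are noncoding genes. Hoxb4 (235, 1 and 72 reads in Vec, CCND2wt and CCND2mut) and Hoxb3 (38, 0 and 6) hold nearly all reads of coding genes, and Hoxb5, Hoxb7 and Hoxb9 are at 0 in each group.

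Nkx2-3 (ENSMUSG00000044220; plus strand of chromosome 19, 43612325 to 43615892 in mm10) was read almost only in Vec, and very unevenly there. It had 19, 311 and 82 reads in Vec 1, 2 and 4, which is 1.15, 21.1 and 5.26 CPM. All CCND2wt libraries had 0 reads, and the CCND2mut libraries had 0, 1 and 0. Vec thus lay above both other groups in every library, although Vec 2 alone held 75.5% of the Vec reads. Nkx2-3 was at least 160-fold higher in Vec than in CCND2wt by the floor of 3 counts over the group, and at least 57.3-fold higher without Vec 2. Against CCND2mut the ratio was 409 (412 reads against 1, counting interval 72.9 to 16200), and 146 without Vec 2 (interval 25.6 to 5820). Within Vec the highest library was 18.4 times the lowest, and 1.28% of all tested genes had as large a range there. The relatives of Nkx2-3 were not detectable above single reads: Nkx2-4 had 1 read in each of Vec 1 and Vec 2, Nkx2-2 and Nkx2-6 had 1 read each in CCND2wt 4, and Nkx2-1, Nkx2-5 and Nkx2-9 had 0.

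Per kilobase of gene length, the mean level in Vec was 4.34 CPM for Nkx2-3, 1.96 for Hoxb4 and 0.191 for Hoxb3. Nkx2-3 and Hoxb4 did not keep this order within libraries: Hoxb4 was the higher in Vec 1 (2.23 against 0.543 CPM per kb) and Nkx2-3 in Vec 2 (10 against 2.46) and Vec 4 (2.49 against 1.17). Hoxb3 was the lowest of the 3 in each Vec library. By these means, 41.2% of the 12701 tested protein-coding genes lay below Nkx2-3 in Vec, 26.3% below Hoxb4 and 5.7% below Hoxb3. Even where they were highest, the members were thus genes of low to moderate level.

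Of the 8 members, 2 (Hoxb4 and Nkx2-3) had enough reads to enter the fit across 15660 genes, and they entered through the groups in which they were high, so that their calls are no support for a difference. In edgeR both were called lower in CCND2wt than in Vec, where 9.05% of all tested genes were called lower and 18.8% were called in either direction. Nkx2-3 alone was called lower in CCND2mut than in Vec (26.9% of tested genes lower, 51.8% in either direction). Hoxb4 was called higher in CCND2mut than in CCND2wt (23.2% of tested genes higher, 47.0% in either direction). The number called lower in CCND2wt was 0 without CCND2wt 4 and 1 without CCND2wt 2, and the number called lower in CCND2mut than in Vec was 2 without Vec 4. For both tested members every Vec library lay above every CCND2wt library and above every CCND2mut library, as did 23.7% and 29.2% of all tested genes. Between CCND2mut and CCND2wt, 30.9% of tested genes were higher and 32.2% lower in CCND2mut without overlap, and Hoxb4 was among the former by the margin of 0.0668 against 0.055 CPM, which is 1 read each in CCND2mut 2 and CCND2wt 4.

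HoxA genes, which share ancestry with HoxB genes and also mark early blood cells, followed another order of groups than Hoxb4. Summed over 11 HoxA genes, the level was 18.8, 29.8 and 16.8 CPM in Vec 1, 2 and 4, 42.9, 35.4 and 37.9 CPM in CCND2wt 2, 3 and 4, and 0.729, 0.200 and 0.0664 CPM in CCND2mut 1, 2 and 3. CCND2wt was thus the group with the highest HoxA and the lowest HoxB levels. The HoxB cluster gave 27.3%, 20% and 16% of all HOX reads in Vec 1, 2 and 4 (exact Clopper-Pearson 95% intervals 23.2 to 31.8, 16.7 to 23.6 and 12.2 to 20.5). It gave 0%, 0.16% and 0.145% in CCND2wt 2, 3 and 4, where the exact upper limit for 0 of 811 reads was 0.454%, and a floor of 3 counts of the total gives 0.37%. In CCND2mut 1 and 3 the share was 79.7% (47 of 59 reads, interval 67.2 to 89) and 96.6% (28 of 29, interval 82.2 to 99.9), and CCND2mut 2 had 3 HoxB reads of 6. HoxC and HoxD genes had 9 reads and 1 read in all, and all 10 were in Vec 2 and Vec 4.

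**Figure D3:**
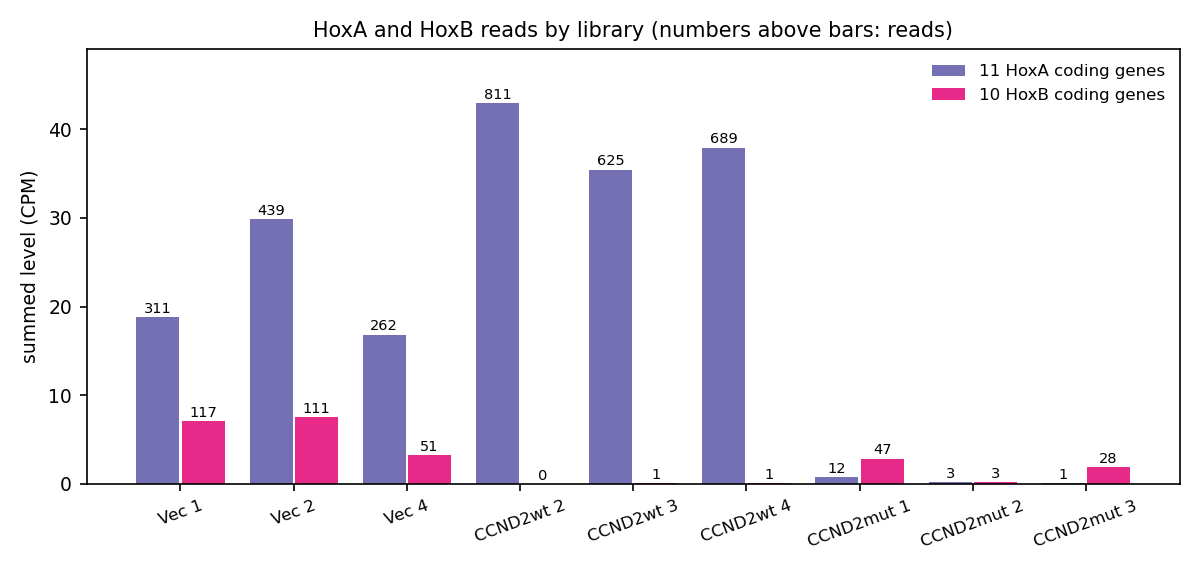
Summed level of the 11 HoxA and 10 HoxB coding genes in CPM (y axis) for each library (x axis), with the number of reads above each bar. HoxA is highest in CCND2wt (35.4 to 42.9 CPM) where HoxB has 0, 1 and 1 reads, and CCND2mut 1 and 3 hold more HoxB than HoxA reads.

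In the fit of all genes, 8 of the 11 HoxA genes were tested. Against Vec, 3 of them rose in CCND2wt and 0 fell (9.71% of tested genes rose), among them Hoxa4, from 0.489 ± 0.149 to 3.63 ± 0.843 CPM (log2 fold change 2.87, SE 0.477, edgeR adjusted p = 0.00586), and Hoxa3. Of the 3, only Hoxa4 was still called without Vec 1, Vec 4 or any 1 of the CCND2wt libraries. All 8 fell in CCND2mut against Vec and against CCND2wt (26.9% and 23.8% of tested genes fell), and 4 fell against Vec when only these groups were fitted. Hoxa7, the HoxA gene with the most reads, went from 9.54 ± 3.07 CPM in Vec to 0.0810 ± 0.140 in CCND2mut (log2 fold change -6.69, SE 0.736, edgeR adjusted p = 0.000188). Hoxa9, known as a driver of myeloid leukaemia, stood at 5.43 ± 1.91, 3.93 ± 0.281 and 0.0830 ± 0.0921 CPM in Vec, CCND2wt and CCND2mut. In CCND2mut 1, Hoxb4 had 43 reads against 4 for Hoxa7 and 3 for Hoxa9, and in CCND2mut 3 it had 28 against 0 and 0.

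The HOX partner genes ranged in Vec from a mean of 0.217 CPM for Meis2 to 150.3 CPM for Pbxip1. Of 10 cofactor genes 8 were tested. Against Vec, 1 rose and 2 fell in CCND2wt, and 0 rose and 4 fell in CCND2mut, where 18.8% and 51.8% of all tested genes were called in either direction. The list had median log2 fold changes of -0.26 and -1.48, while the medians over all tested genes were -0.04 and -0.03. Pbx3, a PBX partner known for its role beside HOXA9 in leukaemia, rose from 4.67 ± 1.43 CPM in Vec to 34.6 ± 3.85 in CCND2wt (log2 fold change 2.89, SE 0.307, edgeR adjusted p = 0.00114), and stood at 4.63 ± 1.37 in CCND2mut. Pbxip1, which encodes a protein that binds PBX and keeps it from DNA, fell from 150.3 ± 17.9 to 65.1 ± 2.35 CPM in CCND2wt (-1.21, SE 0.137, adjusted p = 0.00145 in edgeR). Pbx4 fell in CCND2mut to 7.06 ± 2.66 from 49.6 ± 11.8 CPM (-2.81, SE 0.286) and was also called lower in CCND2wt (-1.36, edgeR adjusted p = 0.0116). That last call was lost without CCND2wt 2 or CCND2wt 4.

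Meis1, which binds DNA together with HOX and PBX proteins and sustains stem cells, stood at 87.6, 194 and 97.3 CPM in Vec 1, 2 and 4 and at 47.5, 45.9 and 50.0 CPM in CCND2wt 2, 3 and 4 (edgeR adjusted p = 0.18). It fell in CCND2mut to 5.04, 0.668 and 0.332 CPM in replicates 1, 2 and 3 (log2 fold change -5.94, SE 0.85, edgeR adjusted p = 0.000717). CCND2mut 1 and 3 thus held Hoxb4 reads with little Meis1. The PBX gene Pbx2 and the MEIS relative Pknox1 were not called in any comparison, with 92.9 to 109.9 and 42.3 to 44.2 CPM as group means.

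**Figure D4:**
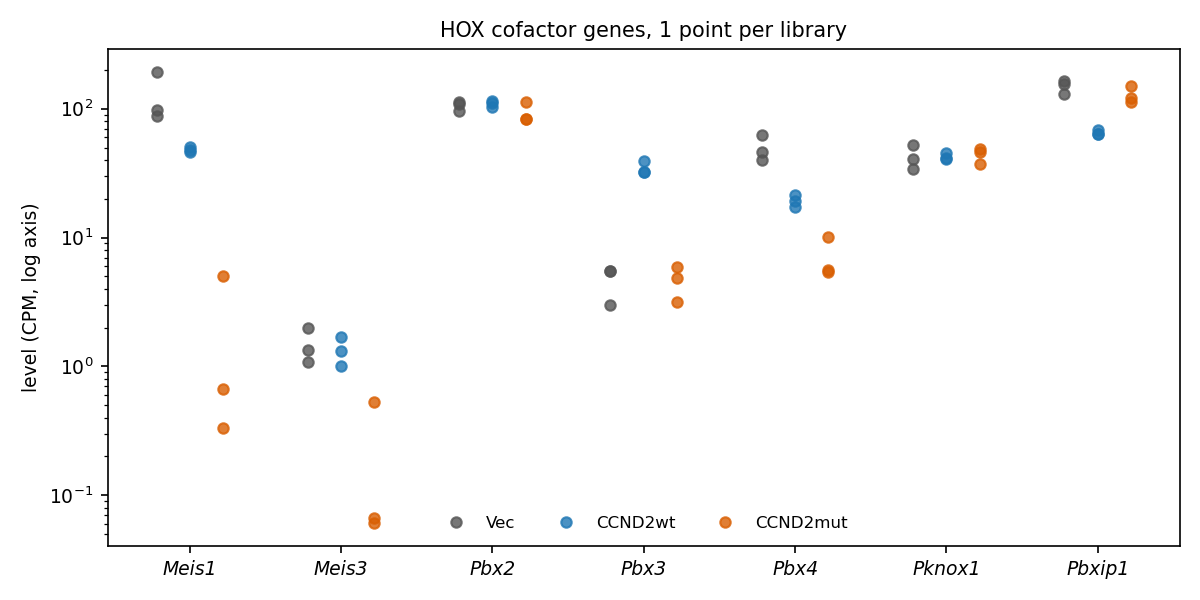
Levels in CPM (y axis, logarithmic) of 7 of the 8 tested HOX cofactor genes (x axis), with 1 point for each library coloured by group; libraries with 0 reads would not be shown, and there were 0 such libraries. Pbx3 is higher in CCND2wt (32.4 to 39.1 CPM) than in the other groups, and Meis1 and Pbx4 are lowest in CCND2mut.

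Genes that switch HOX clusters on or off were examined as lists, each of which can hold members with opposite roles. Of 24 genes of the MLL and DOT1L complexes and their partners, which keep HOX genes active, 2 rose and 3 fell in CCND2wt against Vec, and 8 rose and 9 fell in CCND2mut against Vec. Of all tested genes 9.71% rose and 9.05% fell in CCND2wt, and 24.9% rose and 26.9% fell in CCND2mut. Psip1, which encodes the LEDGF tether of MLL and menin, rose from 65.1 ± 9.40 to 115 ± 1.75 CPM in CCND2wt (log2 fold change 0.83, SE 0.123, edgeR adjusted p = 0.00384). Mllt3, whose product reads acetylated histones and recruits DOT1L, fell from 15.6 ± 2.58 in Vec to 2.67 ± 1.21 CPM in CCND2mut (-2.55, SE 0.349), and Ash2l, a core subunit of MLL complexes, rose to 218 ± 37.7 from 69.2 ± 9.19 CPM (1.65, SE 0.155; edgeR adjusted p = 0.000519 and 9.22e-05). Median log2 fold changes of the list were -0.17 and -0.21.

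Of 15 genes of CDX and other factors upstream of HOX genes, 11 were tested. In CCND2wt 1 rose and 1 fell against Vec, and in CCND2mut 3 rose and 2 fell, beside 18.8% and 51.8% of all tested genes called. The CDX genes, known as activators of HOX genes in embryonic blood, were not detectable: Cdx2 and Cdx4 had 0 reads in all 9 libraries, and Cdx1 had 1 read in CCND2mut 3. Nfya, a subunit of the NF-Y factor that binds the Hoxb4 promoter, was lower in CCND2mut than in CCND2wt (119 ± 12.6 against 283 ± 14.4 CPM, log2 fold change -1.25, SE 0.117, edgeR adjusted p = 9.27e-05). The other NF-Y subunits did not follow. Nfyb was higher in CCND2mut than in CCND2wt (71.9 ± 8.85 against 45.9 ± 3.03 CPM, 0.65, SE 0.204, edgeR adjusted p = 0.0289), and Nfyc was not called. Rara, the retinoic acid receptor alpha, fell from 85.7 ± 33.7 CPM in Vec to 18.95 ± 9.04 in CCND2mut (-2.17, SE 0.433, edgeR adjusted p = 0.00355). Median log2 fold changes were 0.01 and 0.03 against Vec. Among 4 genes whose proteins restrain HOX proteins, 1 rose and 1 fell in CCND2wt, and 2 rose and 1 fell in CCND2mut (18.8% and 51.8% of all tested genes were called). Gmnn (geminin), which also controls replication licensing, stood at 15.3 ± 8.39, 40.3 ± 1.96 and 82.6 ± 15.8 CPM in Vec, CCND2wt and CCND2mut, and its rise in CCND2mut was 2.43 on the log2 scale (SE 0.364, edgeR adjusted p = 0.000889).

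Polycomb genes, whose products keep HOX clusters silent, had members called in both directions. Of 24 genes 5 rose and 5 fell in CCND2wt against Vec (median log2 fold change 0.10), and 7 rose and 12 fell in CCND2mut against Vec (median -0.28). Of all tested genes 9.71% rose and 9.05% fell in CCND2wt, and 24.9% rose and 26.9% fell in CCND2mut. Phf19, which helps the PRC2 complex to reach its sites, rose in CCND2wt from 22.1 ± 2.21 to 68.2 ± 2.17 CPM (1.62, SE 0.192, edgeR adjusted p = 0.00168). Cbx7, a PRC1 subunit of stem cells, fell from 103 ± 6.31 to 41.3 ± 1.55 CPM (-1.31, SE 0.0986, edgeR adjusted p = 0.000244). Cbx6, another PRC1 subunit, rose from 85.7 ± 15 CPM in Vec to 159.7 ± 13.5 in CCND2wt, while its CCND2mut mean was 2.66 ± 0.412 (log2 fold change to Vec -5.01, SE 0.191, edgeR adjusted p = 3.76e-06). Phc1 fell in CCND2mut from 36.2 ± 4.45 to 10.4 ± 1.86 CPM.

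The tested genes beside the members followed other patterns than the members. Within 300 kb of the HoxB members 3 genes were tested, all beyond Hoxb13: Snf8, Ube2z and Atp5g1. None of the 3 was called in CCND2wt against Vec (edgeR adjusted p = 0.775, 0.5 and 0.0978), and all 3 rose in CCND2mut against Vec, where 24.9% of tested genes rose. Atp5g1, a subunit of the mitochondrial ATP synthase, went from 28.4 ± 3.62 to 61.0 ± 8.31 CPM (log2 fold change 1.10, SE 0.145, edgeR adjusted p = 0.000437). On the other side Skap1, an adaptor protein of T cells, had 36, 5 and 4 reads in Vec 1, 2 and 4, 0, 1 and 1 in CCND2wt and 1, 0 and 4 in CCND2mut, too few to be tested. T and NK cell markers as a list were also highest in Vec 1.

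Within 300 kb of Nkx2-3, 7 genes were tested. In CCND2wt against Vec 0 of 7 were called in edgeR (18.8% of tested genes were called in either direction). In CCND2mut against Vec 4 rose and 0 fell, where 24.9% of tested genes rose and 26.9% fell. Got1, the cytosolic aspartate aminotransferase 113 kb from Nkx2-3 between lower-coordinate ends, went from 9.27 ± 2.11 to 64.8 ± 5.40 CPM in CCND2mut (2.80, SE 0.177, edgeR adjusted p = 2.11e-05). Abcc2, an export pump of the liver 169.9 kb away, went from 0.335 ± 0.332 to 25.75 ± 1.99 CPM (6.22, SE 0.828, edgeR adjusted p = 0.000499). Slc25a28, a mitochondrial iron carrier and the nearest tested gene, stood at 56.6 ± 5.60, 46.9 ± 1.75 and 51.4 ± 15.2 CPM in Vec, CCND2wt and CCND2mut and was not called. With no filter on low counts, or without Vec 1, 2 of the genes within 300 kb of any member were called in CCND2wt against Vec.

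The noncoding gene Gm20467 lies beside Nkx2-3 on the minus strand of chromosome 19, from 43609077 to 43610625, so that both genes point away from each other. It had 3, 20 and 7 reads in Vec 1, 2 and 4 and 0 in all CCND2wt and CCND2mut libraries. Gm20467 thus had the same order as Nkx2-3 over the Vec libraries (19, 311 and 82 reads), with 15.8, 6.43 and 8.54 reads per 100 Nkx2-3 reads. Its summed level in Vec was at least 11.7-fold higher than in CCND2wt and at least 9.92-fold higher than in CCND2mut, by the floor of 3 counts over the group.

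**Figure D5:**
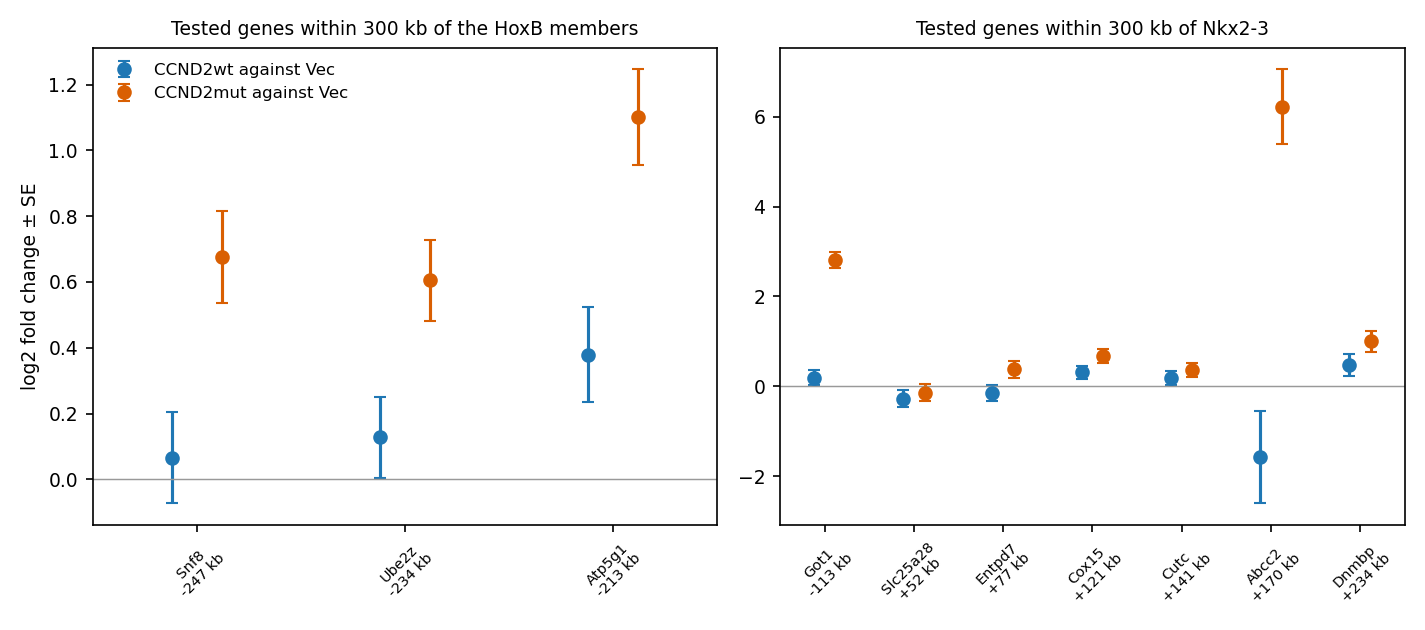
Log2 fold change against Vec ± SE (y axis, separate linear scales) of the tested genes within 300 kb of the HoxB members (left) and of Nkx2-3 (right), in order of position with the distance in kb from the lower-coordinate end of the nearest member to that of the gene (x axis). In CCND2wt 0 of the 10 genes were called, and in CCND2mut 7 rose, up to 6.22 for Abcc2. Of all tested genes 18.8% were called in CCND2wt and 24.9% rose in CCND2mut.

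The genes with the profile closest to Nkx2-3 over the 9 libraries were Tff2, Bpifc, Mecom, Cysltr2 and Pnck, by the mean absolute difference of centred log2(CPM + 1) values, which was 0.265 for Tff2 and 0.405 to 0.462 for the others, against a range of 4.47 for Nkx2-3 itself. Tff2, a secreted trefoil peptide, stood at 3.20, 27.5 and 9.30 CPM in Vec 1, 2 and 4, at 0.715 to 1.11 CPM in CCND2wt and at 0.134 to 0.486 CPM in CCND2mut. Mecom (EVI1), a transcription factor of blood stem cells, stood at 4.22, 8.42 and 4.36 CPM in Vec, at most 0.110 CPM in CCND2wt and at 0.546, 0 and 0 CPM in CCND2mut. Prdm16, a relative of Mecom picked with its values in view, had 6.88, 4.96 and 1.41 CPM in Vec 1, 2 and 4. It had 0 in all CCND2wt libraries and 0.0607, 0 and 0 CPM in CCND2mut 1, 2 and 3. Prdm16 was not among the nearest 5 to Nkx2-3, and was highest in Vec 1, where Nkx2-3 was lowest within Vec. Mecom and Prdm16 are on the list of stem and progenitor markers below, most of which were not called in CCND2wt against Vec. When 0.25 instead of 1 was added before the logarithm, 1 of the 5 genes, Tff2, was again among the nearest 5 to Nkx2-3. The 5 genes closest to the mean profile of the 7 HoxB members were Ankle2, Rtf2, Wwp2, Poli and Usp7 (0.0702 to 0.0784), and with 0.25 added 0 of them were among the nearest 5. That mean had a range of only 0.582, since most HoxB members were near 0. For Hoxb4 alone, a reference added with the data in view, they were Ryr1, Zfp984, H2-Q10, Matk and Ms4a6c (0.321 to 0.36, against a range of 2.87), and with 0.25 added 1 of them, Ms4a6c, was again among the nearest 5.

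Markers of stem and progenitor cells, taken as a list, moved with the groups in another way than Hoxb4. Of 23 tested markers 1 rose and 3 fell in CCND2wt against Vec, and 0 rose and 18 fell in CCND2mut, with median log2 fold changes of -0.12 and -3.36. Of all tested genes 18.8% were called in CCND2wt, and 26.9% fell in CCND2mut. Their summed level was 7005 to 8633 CPM in Vec, 7348 to 7533 CPM in CCND2wt and 2348 to 3896 CPM in CCND2mut. Summed stem and progenitor levels of Vec and CCND2wt thus overlapped while their Hoxb4 levels did not, and the HoxA level fell with these markers in CCND2mut. Much of the sums came from Egr1, Cdk6 and Kit (means of 1471, 1316 and 795.5 CPM in Vec and 920, 1007 and 1107 in CCND2wt). The 3 markers that fell in CCND2wt weighed little in them: Flt3 went from 97.6 to 31.3 CPM, Mecom from 5.67 to 0.0543 and Prdm16 from 4.42 to 0. Esam rose from 20.1 to 104.8 CPM. Of 16 genes associated with HOXB4 and HOXA9 programs, 2 rose and 5 fell in CCND2wt, and 2 rose and 13 fell in CCND2mut. The same shares of all tested genes apply, with 9.71% higher and 9.05% lower in CCND2wt and 24.9% higher and 26.9% lower in CCND2mut.

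Markers of other cell types also moved with the libraries in which the members differed. Mast cell and basophil markers summed to 9489 CPM in CCND2mut 2, the mutant library with 1 Hoxb4 read, against 1245 and 2557 CPM in CCND2mut 1 and 3, and to 10300 to 10770 CPM in CCND2wt, where Hoxb4 was near 0. In Vec, where Hoxb4 was highest, they summed to 6934 to 9425 CPM. Cpa3 made up most of these sums (means of 7716, 8446 and 3441 CPM in Vec, CCND2wt and CCND2mut). The 3 mast cell markers called higher in CCND2wt than in Vec differed more between groups. In the same order of groups, Mcpt4 stood at 9.07, 688 and 108 CPM, Tpsb2 at 11.5, 649 and 233 CPM and Fcer1a at 8.72, 100.5 and 4.19 CPM. Mature neutrophil markers summed to 14360, 482 and 566 CPM in Vec 1, 2 and 4, to 140 to 251 CPM in CCND2wt and to 18940, 3113 and 4029 CPM in CCND2mut 1, 2 and 3. Vec 1, the Vec library with the fewest Nkx2-3 reads, also held the most erythroid (16320 against 223 and 3699 CPM) and B cell markers (304.5 against 44.96 and 69.0 CPM). T and NK cell markers summed to 65.5 to 128 CPM in Vec, with the highest value in Vec 1, and to 33.6 to 43.6 CPM in CCND2wt and 35.3 to 55.2 CPM in CCND2mut. In CCND2wt against Vec 3 of 8 mast cell, 0 of 10 neutrophil, 0 of 10 erythroid, 0 of 7 B cell and 0 of 4 T and NK cell markers tested rose, and 0, 1, 1, 4 and 1 of them fell. In CCND2mut against Vec 2, 1, 0, 0 and 1 rose, and 0, 0, 7, 7 and 3 fell. Over all tested genes, 9.71% rose and 9.05% fell in the former comparison, and 24.9% and 26.9% in the latter. The part of these cells in the members' levels was not tested.

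Among markers of monocytes and macrophages the sums were 408, 59.96 and 68.5 CPM in Vec 1, 2 and 4, 47.9 to 49.6 CPM in CCND2wt and 1156 to 4475 CPM in CCND2mut. Megakaryocyte markers summed to 104 to 138, 86.6 to 96.6 and 29.6 to 71.2 CPM in Vec, CCND2wt and CCND2mut, mostly from Itga2b (means of 108.5, 87.0 and 42.1 CPM). Of 6 such genes 4 were tested. Against Vec 0 were called in CCND2wt, and 1 rose and 2 fell in CCND2mut, beside 18.8% and 51.8% of all tested genes called. Ppbp rose, from 0.204 to 7.53 CPM in CCND2mut. Blast and promyelocyte markers summed to 1485 to 2183 CPM in Vec, 2807 to 2932 CPM in CCND2wt and 5524 to 11060 CPM in CCND2mut. Ctsg and Mpo carried most of the blast and promyelocyte sum in CCND2wt (means of 1438 and 1143 CPM). Of the 10 genes of that list 2 rose and 2 fell in CCND2wt against Vec, with a median log2 fold change of -2.67. Prtn3 fell from 41.4 to 5.80 CPM. In CCND2mut 8 rose and 0 fell. Of all tested genes 9.71% rose and 9.05% fell in CCND2wt, and 24.9% rose in CCND2mut. Markers of stroma, endothelium and bone summed to 552 to 647 CPM in Vec, 507 to 547 in CCND2wt and 638 to 839.5 in CCND2mut, nearly all from Pecam1, Runx2 and Pdgfrb, of which Pecam1 and Runx2 are also known in blood cells. Of the 15 genes of that list 7 were tested; 0 rose and 2 fell in CCND2wt against Vec, and 2 rose and 2 fell in CCND2mut against Vec, beside 18.8% and 51.8% of all tested genes called. Pdgfrb, a receptor of pericytes, was among those lower in both groups than in Vec (71.8, 20.1 and 22.6 CPM in Vec, CCND2wt and CCND2mut), as was Nkx2-3. Other vessel and stroma genes were read in other orders: Emcn stood at 6.74, 21.8 and 0.0202 CPM, Kdr at 1.48, 14.8 and 0.526 CPM, Col1a1 at 1.32, 0.236 and 12.4 CPM, and Cxcl12 at 5.25, 0.413 and 1.43 CPM. Pdgfra, Sp7, Col3a1 and Madcam1 had 3, 3, 2 and 1 reads over all 9 libraries. The part of such cells in the Nkx2-3 level was not tested.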

How the data were processed

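RNA-seq read counts of 9 mouse bone marrow libraries, 3 in each group, were used as deposited. The authors' values are raw counts per gene, made per the submitters' processing notes with CASAVA 1.8, fastp, HISAT2 2.0.5 on mm10 and featureCounts 1.5.0-p3, beside which DESeq2 1.20.0 is listed. The deposited table gives gene length in bases as another column (used for CPM per kb). No annotation release or strand setting is given in the sources used here. Groups and numbers came from sample titles, and 0 count columns stayed unassigned.

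Genes passing filterByExpr (15660) were scaled by TMM and fitted over all 9 libraries with edgeR 4.0.16 (R 4.3.3, limma 3.58.1), in a robust quasi-likelihood test with 6 residual degrees of freedom. P-values were adjusted by Benjamini-Hochberg over all tested genes, at 0.05. The script was tested on simulated data. Ratios used summed reads, with exact binomial intervals that leave out the spread between libraries. DESeq2 1.42.0 was an alternative. The members, the 23 gene lists and the naming rule were chosen with earlier results of these data known. The naming rule took all members, the most changed cofactor, HoxA and regulator genes, neighbours within 300 kb and the nearest profiles. The text uses some of these. Values of some genes on these lists are not reported here, although the list counts include them.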

Additional observations from a re-analysis of the deposited data

How the results depend on the processing

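Counts outside a factor of 1.5 were these. Members called lower in CCND2mut than Vec numbered 2 with limma-voom (1 in the fit reported). Flanking genes called in CCND2wt against Vec numbered 2 with no filter on low counts (0 in edgeR as reported), and HoxA genes called in CCND2mut against Vec numbered 4 when only those groups were fitted (8 as reported; fewer samples). Leaving out each library gave 0 to 2 members lower in CCND2wt than Vec, 1 to 2 lower in CCND2mut than Vec, 1 to 3 HoxA genes and 0 to 2 flanking genes called in CCND2wt against Vec. With the CCND2wt libraries summed to 1 sample, these numbered 0 members and 0 HoxA genes called in CCND2wt against Vec, and 2 flanking genes in CCND2mut against CCND2wt (6 as reported). Of 73 named gene results, 0 reversed, 84 of 657 values fell short of the threshold when a library was left out, and 31 of 508 did under the other planned settings. Most of these were named for a call in these same data, often with a large change, so that the lack of reversals is largely built in. Nearest profiles with 0.25 added shared 0 (HoxB mean), 1 (Nkx2-3) and 1 (Hoxb4) of 5 genes. The cause was not tested. A replicate block of the titles' numbers left 1 HoxA gene called in CCND2wt against Vec (3 as reported); deviations of same-numbered libraries correlated at -0.0727 to 0.187 and the labels do not say that numbers pair libraries. Motifs in promoters were not run, since no sequences were used here. Depth limits members at 0 to 3 reads.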
